A study of Mus musculus with 6 samples.

Results

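The genes described here carry arginine into the macrophage, convert it, or make itaconate: Irg1, Slc7a1, Slc7a2, Ass1, Arg1, Arg2, Nos2 and Odc1. They are 8 of the 34745 genes in the deposited table, taken by their gene names, and all 8 had enough counts to be tested. They were proposed with the difference between legumain-deficient and wild-type macrophages already in view, so that difference is given below as a description of these libraries and supports no claim about the genes as a set. The libraries came from cardiac macrophages of LGMN-KO mice, which lack the lysosomal endopeptidase legumain (3 libraries, replicates 1, 2 and 4), and of WT mice (3 libraries, replicates 1, 2 and 3). All mice were C57BL/6 and 8 weeks old. The series design places every sample after myocardial infarction, while the protocol mentions both coronary ligation and sham surgery and does not say which an animal had or how long after it the heart was taken. Heart digests were labelled with antibodies to the leukocyte protein CD45, to CD64 and to CD11b. The labels do not say which part of Lgmn is deleted, in which cells, or whether each library is a separate animal, so the spread between libraries may be technical.

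Arginine stands at a branch point of macrophage metabolism. The cationic amino acid transporters Slc7a1 and Slc7a2 bring it into the cell, inducible nitric oxide synthase (Nos2) turns it into nitric oxide and citrulline, and argininosuccinate synthetase (Ass1) starts the route that makes arginine again from citrulline. The arginases Arg1 (cytosol) and Arg2 (mitochondria) instead yield urea and ornithine, from which ornithine decarboxylase (Odc1) makes putrescine, the first polyamine. Irg1, now named Acod1, makes itaconate from cis-aconitate, an intermediate of the citrate cycle, and itaconate inhibits succinate dehydrogenase. In mouse macrophages Nos2 and Irg1 are induced by bacterial products and interferon-gamma, and Arg1 by interleukin-4 and in wounds.

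Library totals ranged from 19546253 to 24086976 counts. Lgmn itself had 1594, 1731 and 1771 counts in the LGMN-KO libraries, against 45292, 58141 and 54607 in the WT libraries, so the labels and the targeted gene go together. Of the genes of the sort, Ptprc (CD45) had 424 ± 31.5 CPM in LGMN-KO, against 422 ± 80.1 CPM in WT (± SD, 3 libraries each). CPM divide counts by TMM-adjusted library totals, so levels of 1 gene compare across libraries. Fcgr1 (CD64) had 78.2, 85.8 and 123 CPM in LGMN-KO, against 114, 311 and 185 CPM in WT, with overlapping groups (edgeR quasi-likelihood test, adjusted p = 0.17). The gene of CD11b was not analysed here. WT replicate 2 stood highest among the WT libraries for 6 of the 8 genes, whereas over all 12546 tested genes it was highest for 36.7%.

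Irg1, the itaconate enzyme, fell and Slc7a2, an inducible arginine transporter, rose in LGMN-KO macrophages. Nos2 was detected in all WT libraries and in no LGMN-KO library. Arg1, Ass1 and Arg2 had lower values in every LGMN-KO library than in any WT library, and Slc7a1 and Odc1 overlapped between the genotypes. In the fit over all genes (edgeR quasi-likelihood test, Benjamini-Hochberg adjusted p below 0.05) 2 of the 8 genes were called, Slc7a2 higher and Irg1 lower, beside 0.789% of all tested genes (0.311% higher and 0.478% lower). Without adjustment 6 of the 8 had a p under 0.05, beside 17.5% of all tested genes. The groups did not overlap for 6 of the 8, beside 23.7% of all tested genes. The genes were proposed from this contrast, so nothing is read from these shares. The median log2 fold change of the 8 genes was -0.87, and over all tested genes it was -0.0021. Fewer cells of a type and less RNA per cell cannot be told apart in bulk libraries such as these.

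**Figure D1:**
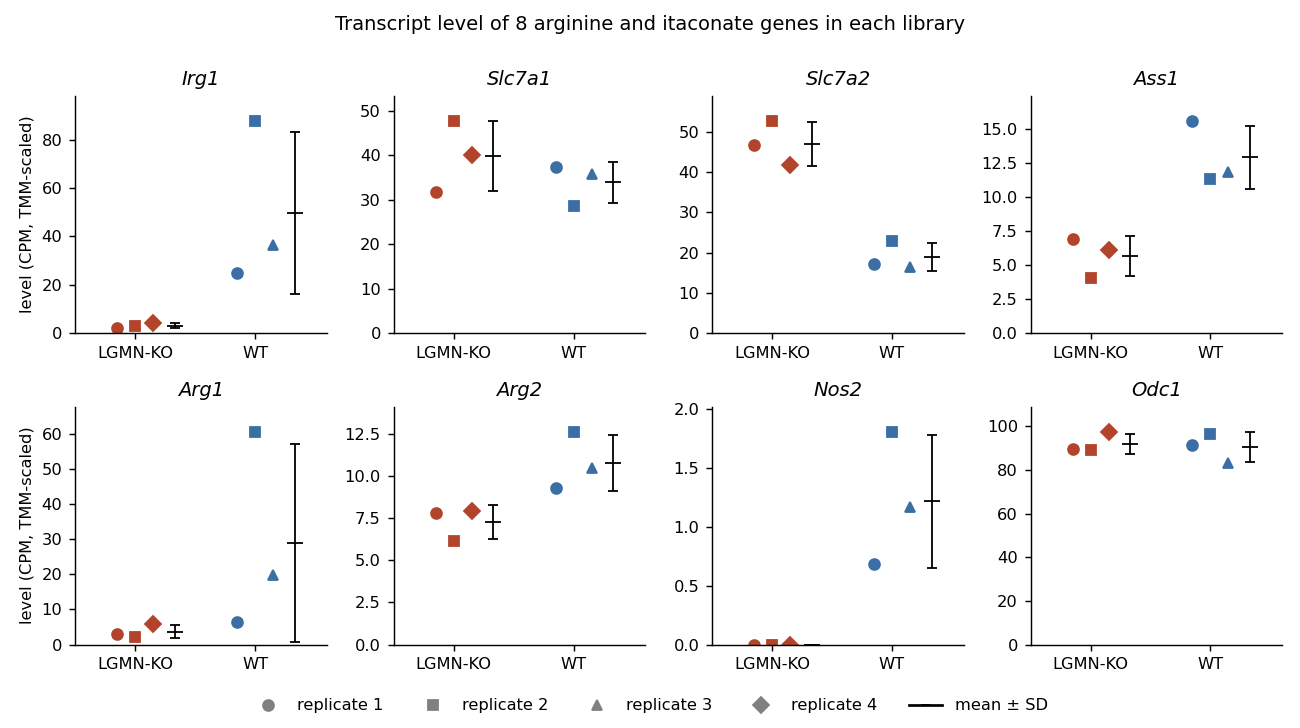
Level of each of the 8 genes in CPM (vertical axes, from 0) in the LGMN-KO libraries (red) and the WT libraries (blue), 1 point per library with the shape giving the replicate number, and mean ± SD (n = 3) beside each group. Irg1, Arg1 and Nos2 are low in all LGMN-KO libraries and spread widely among WT libraries, with WT replicate 2 at the top.

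Irg1 had 47, 57 and 92 counts in LGMN-KO replicates 1, 2 and 4, against 511, 1893 and 879 counts in WT replicates 1, 2 and 3. In CPM this was 2.32, 2.91 and 4.34 in LGMN-KO, against 24.9, 87.6 and 36.7 in WT. The highest LGMN-KO library lay far below the lowest WT library, and the WT libraries differed 3.52-fold among themselves, against 1.87-fold in LGMN-KO. Irg1 averaged 3.19 ± 1.04 CPM in LGMN-KO, against 49.7 ± 33.4 CPM in WT (± SD, 3 libraries each), for a log2 fold change of -3.96 ± 0.52 (SE). Without WT replicate 2 it was -3.27. The gene lost its call without any 1 of the LGMN-KO libraries and without WT replicate 3, and kept it without WT replicate 1 or 2. Irg1 (ENSMUSG00000022126) is protein coding and spans positions 103046977 to 103056573 of chromosome 14, plus strand (GRCm38), with no exon shared with another annotated gene.

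The RefSeq promoter table (GRCm38.p6) held start sites for 4 of the 8 genes: Irg1 (as Acod1), Ass1, Slc7a1 and Odc1. Slc7a2, Arg1, Arg2 and Nos2 were not matched. The 250 bases before the start are printed for Irg1, whose level differed most of these 4, for Ass1, whose groups were also apart, and for Odc1, whose level was nearly the same in both genotypes. Capitals mark matches, on either strand, to 11 motifs chosen with the sequences in view: the kappa-B decamer of the immunoglobulin kappa enhancer, a symmetric kappa-B form written GGAANTTCC, the GAS form written TTCNNNGAA, the core of the interferon-stimulated response element, the E-box written CACGTG, the CRE written TGACGTCA, the C/EBP form written TTGCGCAA, the ATF4 form written TGATGNAA, the TATA box written TATAAA, the GC box written GGGCGG, and the CCAAT box. No 2 matches overlap in these windows. The windows are chr14:103046762-103047011, chr2:31470020-31470269 and chr12:17544623-17544872, each on the plus strand.
Irg1: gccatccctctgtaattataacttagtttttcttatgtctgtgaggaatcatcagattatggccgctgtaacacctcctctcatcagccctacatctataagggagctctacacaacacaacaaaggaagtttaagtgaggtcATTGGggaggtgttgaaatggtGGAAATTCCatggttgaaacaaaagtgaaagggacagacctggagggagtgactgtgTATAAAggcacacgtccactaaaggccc
Ass1: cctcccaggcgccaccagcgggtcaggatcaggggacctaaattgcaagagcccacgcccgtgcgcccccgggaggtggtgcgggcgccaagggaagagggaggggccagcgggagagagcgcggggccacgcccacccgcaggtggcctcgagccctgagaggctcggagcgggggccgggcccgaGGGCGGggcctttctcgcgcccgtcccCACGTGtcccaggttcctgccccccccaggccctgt
Odc1: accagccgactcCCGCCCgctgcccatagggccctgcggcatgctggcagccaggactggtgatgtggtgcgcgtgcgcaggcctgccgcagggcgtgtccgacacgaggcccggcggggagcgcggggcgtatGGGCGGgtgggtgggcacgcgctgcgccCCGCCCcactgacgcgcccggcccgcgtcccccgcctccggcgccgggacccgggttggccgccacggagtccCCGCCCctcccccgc

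The Irg1 window held 44.4% G and C and 2 CpG pairs, the Ass1 window 75.6% and 23, and the Odc1 window 80.0% and 35, where the median of all 32851 windows in the table was 52.4% and 6. Irg1 had a TATAAA match 28 to 23 bases before the start, which 12.4% of all windows hold somewhere. It also had the kappa-B form GGAAATTCC 85 to 77 bases before the start (that form is in 0.813% of all windows) and a CCAAT match on the minus strand (33.8%). Ass1 had an E-box 36 to 31 bases before the start (6.02%) and 1 GC box (32.7%), and Odc1 had 4 GC boxes and no TATAAA. The first of the 2 Slc7a1 start sites had 1 GC box, and the second a GAS form (7.02%) and a TATAAA. The interferon response core (2.98% of windows), the kappa-B decamer (0.14%), CRE (1.55%), C/EBP (0.164%) and ATF4 (3.45%) motifs had no match in the windows of these 4 genes. A match is a string of letters and was not tested as a binding site.

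Slc7a2, the transporter that mouse macrophages need for sustained nitric oxide production, had 945, 1030 and 886 counts in LGMN-KO, against 355, 496 and 394 counts in WT. In CPM the libraries held 46.6, 52.6 and 41.8 in LGMN-KO, against 17.3, 23.0 and 16.4 in WT. Every LGMN-KO library was above every WT library, and neither group spread more than 1.40-fold. The log2 fold change was 1.32 ± 0.15 (SE), and it stayed between 1.22 and 1.48 when any 1 library was left out. The call was lost without LGMN-KO replicate 1, LGMN-KO replicate 2 or WT replicate 3. Slc7a2 (ENSMUSG00000031596, chromosome 8 from 40862396 to 40922308, plus strand) shares 6.95% of its exon bases with the antisense Gm26584, which had 0 counts in all 6 libraries.

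Slc7a1, the transporter found in most cell types, had 31.9, 47.6 and 40.0 CPM in LGMN-KO, against 37.3, 28.7 and 35.8 CPM in WT. The groups overlapped, with LGMN-KO replicate 1 inside the WT range. The log2 fold change was 0.23 ± 0.16 (SE) and lay between 0.09 and 0.38 without any 1 library. Slc7a1 (ENSMUSG00000041313) spans positions 148327410 to 148399904 of chromosome 5, minus strand.

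Set on a scale that allows for gene length (FPKM, as deposited), Slc7a2 made up 49.6%, 42.6% and 41.2% of the summed Slc7a1 and Slc7a2 level in LGMN-KO, against 23.7%, 35.0% and 23.6% in WT. The groups did not overlap, and the means were 44.5 ± 4.47% in LGMN-KO, against 27.5 ± 6.55% in WT (± SD, 3 libraries each). Their summed FPKM was 5.04, 6.66 and 5.39 in LGMN-KO, against 4.00, 3.52 and 3.73 in WT, so the LGMN-KO libraries held more transporter transcript in all. The share itself rests on the gene length: the deposited FPKM imply 18560 bases for Slc7a2, while the exons of GENCODE M21 cover 9135. With the GENCODE lengths, an alternative chosen after the data were seen, the shares were 60.0% in LGMN-KO, against 41.3% in WT, and the difference between the genotypes was 18.7 percentage points where the deposited lengths gave 17.0.

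**Figure D2:**
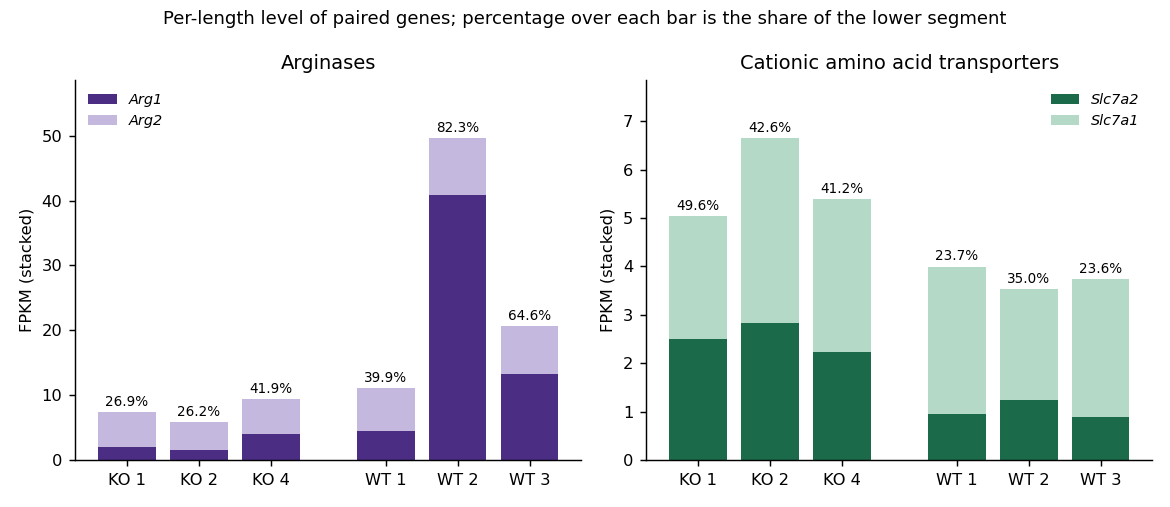
FPKM (vertical axes, from 0) of Arg1 and Arg2 (left) and of Slc7a2 and Slc7a1 (right), stacked in 1 bar per library, with LGMN-KO libraries left of WT libraries. The percentage over a bar is the share of the lower segment, which is Arg1 or Slc7a2: Arg1 runs from 26.2% to 41.9% in LGMN-KO and from 39.9% to 82.3% in WT, and Slc7a2 from 41.2% to 49.6% in LGMN-KO and from 23.6% to 35.0% in WT.

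Nos2, the inducible nitric oxide synthase, had 0 counts in all 3 LGMN-KO libraries, against 14, 39 and 28 counts in WT replicates 1, 2 and 3. A count of 0 still allows up to 0.140 to 0.153 CPM in a LGMN-KO library (3 counts, counting error only), and the WT libraries held 0.681, 1.81 and 1.17 CPM. Pooled over the LGMN-KO group, 3 counts set against the WT mean of 1.22 ± 0.56 CPM (SD, n = 3) put Nos2 at least 24.8-fold lower. This figure allows for counting error alone and takes the WT mean as exact. Libraries of 1 group differed by more than counting error, so it is no firm bound on the difference between the genotypes. The gene was not called in the fit over all genes. DESeq2's Wald test, edgeR without a filter on low counts, limma-voom with sample weights and the fit without WT replicate 1 did call it. Even in WT it was the lowest of the 8 genes per length, with 0.166, 0.430 and 0.277 FPKM. Nos2 (ENSMUSG00000020826) spans positions 78920787 to 78960254 of chromosome 11, plus strand, and shares no exon with another gene.

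Of the other nitric oxide synthases, Nos1 (neuronal) had 1 count in 1 WT library and none elsewhere, and Nos3 (endothelial) reached at most 0.395 CPM in LGMN-KO, against at most 0.375 CPM in WT.

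Ass1, which rebuilds arginine from the citrulline left by nitric oxide synthesis, had 140, 79 and 129 counts in LGMN-KO, against 320, 244 and 284 counts in WT. The CPM values were 6.91, 4.04 and 6.08 in LGMN-KO, against 15.6, 11.3 and 11.8 in WT, with no overlap. Ass1 differed from Irg1, Arg1 and Nos2 in the order of the WT libraries, since WT replicate 1 and not replicate 2 was the highest. Its log2 fold change was -1.18 ± 0.23 (SE), between -1.34 and -0.99 without any 1 library. It was not called in the fit over all genes and was called by DESeq2, by limma-voom with sample weights and without a filter. Ass1 (ENSMUSG00000076441) spans positions 31470207 to 31520672 of chromosome 2, plus strand. Its annotated pseudogene Ass-ps1 had 0 counts in every library.

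Arg1, the arginase linked to wound repair, had 60, 44 and 125 counts in LGMN-KO, against 131, 1307 and 473 counts in WT. In CPM, LGMN-KO replicates 1, 2 and 4 held 2.96, 2.25 and 5.89 and WT replicates 1, 2 and 3 held 6.38, 60.5 and 19.7. LGMN-KO replicate 4 and WT replicate 1 lay next to each other, and the WT libraries spanned 9.49-fold. Arg1 averaged 3.70 ± 1.93 CPM in LGMN-KO, against 28.9 ± 28.2 CPM in WT (± SD, 3 libraries each), so the WT spread was nearly as large as its mean. The log2 fold change of -2.96 ± 0.79 (SE) became -1.82 without WT replicate 2 and -3.43 without WT replicate 1, where the gene was called. DESeq2 also called it, and the fit over all 6 libraries did not. Arg1 (ENSMUSG00000019987) spans positions 24915208 to 24927470 of chromosome 10, minus strand.

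Arg2, the mitochondrial arginase, had 7.80, 6.13 and 7.92 CPM in LGMN-KO, against 9.30, 12.6 and 10.5 CPM in WT. The groups were apart by a small margin, and the log2 fold change was -0.57 ± 0.17 (SE), between -0.66 and -0.44 without any 1 library. It was called in none of the fits at an adjusted p of 0.05. Of its exon bases 28.1% overlap genes on the opposite strand, Vti1b among them, and the labels name no strand setting, so their shared reads cannot be assigned to either gene. Vti1b had 68.1 ± 3.85 CPM in LGMN-KO, against 66.9 ± 10.2 CPM in WT (± SD, 3 libraries each). Arg2 (ENSMUSG00000021125) spans positions 79130777 to 79156301 of chromosome 12, plus strand.

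Per length, Arg1 made up 26.9%, 26.2% and 41.9% of the summed arginase transcript in LGMN-KO, against 39.9%, 82.3% and 64.6% in WT. Arg2 was thus the larger part in every LGMN-KO library and in WT replicate 1, and Arg1 in WT replicates 2 and 3. The groups overlapped, since LGMN-KO replicate 4 was above WT replicate 1. With GENCODE lengths, an alternative chosen after the data were seen, the mean shares were 23.6% in LGMN-KO, against 53.6% in WT. Reads that Arg2 shares with genes on the opposite strand could not be assigned, so shares and sums may hold some of them. The summed arginase level was 7.43, 5.82 and 9.43 FPKM in LGMN-KO, against 11.04, 49.7 and 20.6 FPKM in WT, with no overlap.

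Odc1, which makes putrescine from the ornithine that arginases release, was the most abundant of the 8 genes per length in LGMN-KO, at 34.9, 35.1 and 37.7 FPKM. In WT it had 36.6, 37.8 and 32.5 FPKM. In CPM it averaged 92.0 ± 4.56 in LGMN-KO, against 90.4 ± 6.71 in WT (± SD, 3 libraries each), and the LGMN-KO range lay largely within the WT range. The log2 fold change was 0.02 ± 0.08 (SE), and its sign changed when LGMN-KO replicate 4 or WT replicate 3 was left out. Odc1 (ENSMUSG00000011179) spans positions 17544873 to 17551502 of chromosome 12, plus strand.

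**Figure D3:**
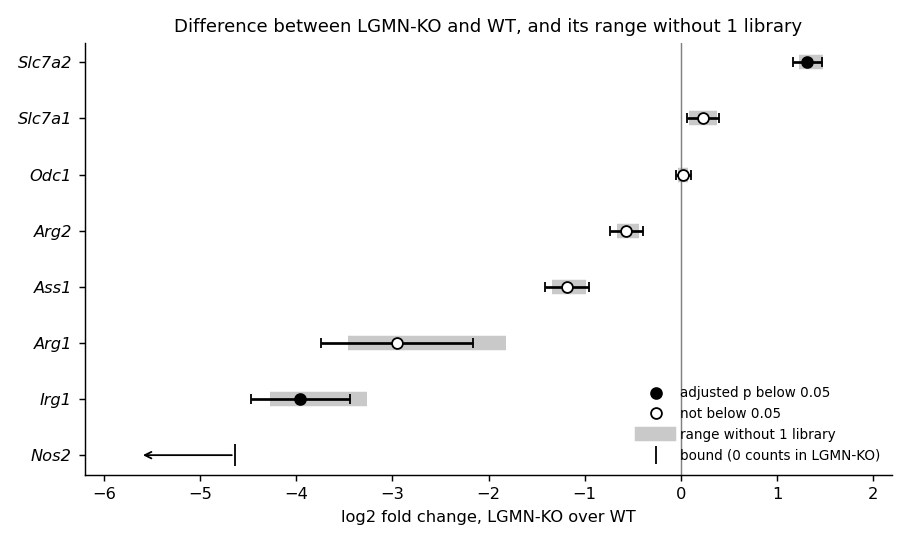
Fold change between LGMN-KO and WT on the log2 scale, positive where LGMN-KO is higher (horizontal axis) for the 8 genes, with its standard error as a bar, the range without any 1 library in grey and genes called over the whole table as filled circles. Nos2 is drawn as a bound from counting error alone, since it had 0 counts in LGMN-KO. Arg1 has the widest grey range, from -3.47 to -1.82, and Odc1 sits at 0.02.

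The order of the levels differed between the genotypes. In LGMN-KO the order by mean FPKM was Odc1 (35.9), Arg2 (5.07), Slc7a1 (3.18), Slc7a2 (2.52), Arg1 (2.49), Ass1 (1.91), Irg1 (1.21) and Nos2 (listed at 0). Slc7a1, Slc7a2, Arg1 and Ass1 each overlapped with the next in that order. In WT it was Odc1 (35.7), Arg1 (19.5), Irg1 (19.0), Arg2 (7.58), Ass1 (4.39), Slc7a1 (2.73), Slc7a2 (1.02) and Nos2 (0.291). There the first 3 overlapped with their neighbours, and the others did not. By these means Irg1 and Arg1 stood among the 3 highest genes in WT and among the 4 lowest in LGMN-KO. In WT replicate 1, however, Arg1 (4.403 FPKM) lay below Irg1 (9.66), Arg2 (6.64) and Ass1 (5.37). The order also rests on the lengths implied by the deposited values. With GENCODE lengths, chosen after the data were seen, Slc7a2 stood second in LGMN-KO with 5.12 on the FPKM scale, overlapping with Arg2 (5.07) and above Slc7a1 (3.44), and Ass1 (2.34) stood above Arg1 (1.65). On that scale Irg1 (18.97) stood above Arg1 (12.9) in WT, and the other places in WT were as with the deposited lengths.

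The genes whose pattern over the 6 libraries was nearest to that of Irg1 were H2-Ab1, Cd74, H2-Aa, H2-Eb1 and Ciita, all of MHC class II presentation. Likeness is the root mean square difference of log2 CPM, each gene centred on its mean over the 6 libraries, among 9134 tested genes with a mean of at least 5 CPM. It was 0.36 for H2-Ab1 and 0.49 for Ciita. Cd74, the invariant chain, had 102, 103 and 117 CPM in LGMN-KO, against 521, 1902 and 1119 CPM in WT, with the same order of WT libraries as Irg1. Around Slc7a2 the nearest were Cmbl, Nin, Hnrnpf, Hist1h1c and Nmnat1, at 0.21 to 0.26. Hnrnpf, a splicing protein gene, had 346, 338 and 348 CPM in LGMN-KO, against 175, 191 and 165 CPM in WT. The libraries are 2 groups of 3, so any gene with a like difference between the genotypes comes near.

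**Figure D4:**
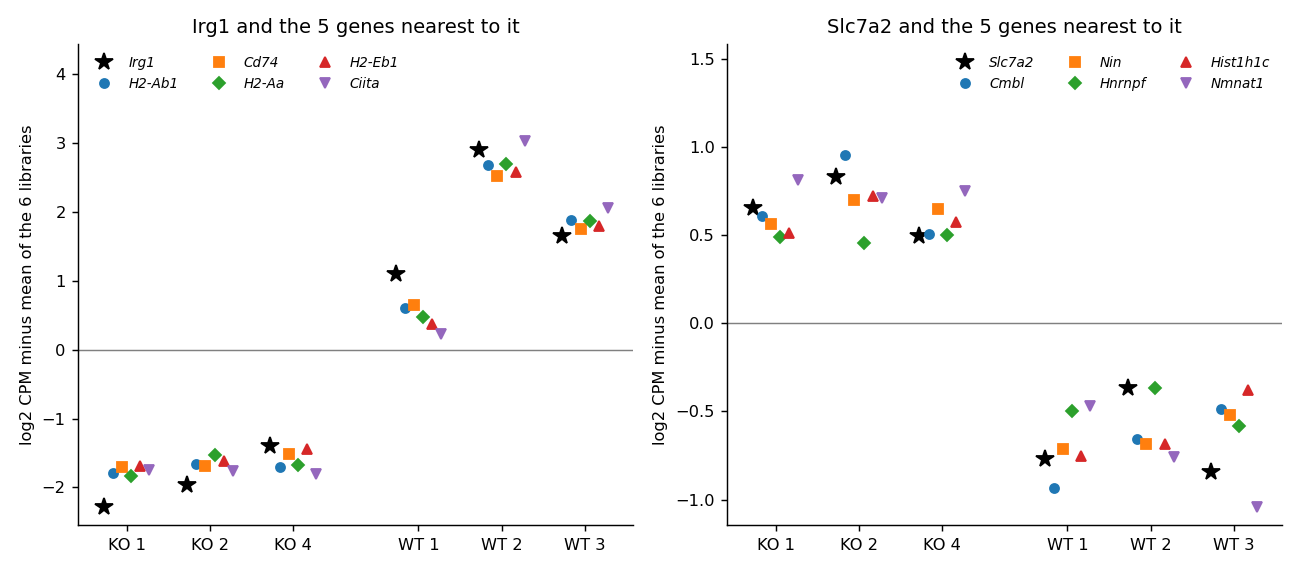
Log2 CPM of Irg1 (left, stars) and Slc7a2 (right, stars) and of the 5 genes nearest to each, centred on each gene's mean over the 6 libraries (vertical axes), with LGMN-KO libraries left of WT libraries. Around Irg1 all genes are lowest in LGMN-KO and highest in WT replicate 2; around Slc7a2 all LGMN-KO values are above 0 and all WT values below.

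The other genes of these pathways were read from 7 lists chosen from textbook knowledge, with 106 genes, of which 92 were tested. Earlier results of these data were known when the lists were chosen, so nothing is read from their shares beside those of all tested genes. In the edgeR quasi-likelihood fit 0 of the 92 were called over all genes, where 21 had an unadjusted p under 0.05, DESeq2 called 11 and limma-voom with sample weights called 6. Their groups did not overlap for 27 of 92 (29.3%), beside 23.7% of all tested genes.

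Of the 8 tested genes of arginine uptake and export 0 were called (0 had an unadjusted p under 0.05 in the edgeR quasi-likelihood test), and their median log2 fold change was -0.05. Slc3a2, the heavy chain that several amino acid transporters need, had 457 ± 32.3 CPM in LGMN-KO, against 402 ± 24.8 CPM in WT (± SD, 3 libraries each; adjusted p = 0.297, edgeR quasi-likelihood test). Of the 4 tested genes of arginine synthesis and the urea cycle 0 were called (1 unadjusted), with a median of 0.12. Asl, which completes the step after Ass1, had 51.1 ± 2.70 CPM in LGMN-KO, against 46.8 ± 2.07 CPM in WT, a log2 fold change of 0.13 ± 0.08 (SE), while that of Ass1 was -1.18. The liver urea cycle genes Cps1 and Otc had 0 counts in all libraries.

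Genes of nitric oxide synthesis and sensing had a median of 0.02 over 11 tested, and 0 were called (0 unadjusted). Gch1, which makes the cofactor tetrahydrobiopterin that nitric oxide synthases need, is named here after its values were seen: it had 26.1 ± 0.78 CPM in LGMN-KO, against 26.5 ± 0.85 CPM in WT (± SD, 3 libraries each). Ddah1, which breaks down inhibitors of these synthases, had a log2 fold change of -0.71 ± 0.33 (SE; adjusted p = 0.319, edgeR quasi-likelihood test). Other genes of polyamine metabolism, among them the antizymes and antizyme inhibitors that regulate Odc1, had a median of -0.0035 over 16 tested, with 0 called (2 unadjusted). Sat1, which acetylates spermidine and spermine, had 287 ± 5.95 CPM in LGMN-KO, against 276 ± 17.7 CPM in WT (± SD, 3 libraries each). Dhps, which uses spermidine to modify the translation factor eIF5A, had a log2 fold change of 0.31 ± 0.09 (SE; adjusted p = 0.142, edgeR quasi-likelihood test).

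The ornithine, proline and creatine branches had a median of -0.08 over 9 tested, with 0 called in the edgeR quasi-likelihood fit (2 unadjusted). Gatm, which uses arginine for the first step of creatine synthesis, had 6.81, 7.97 and 6.55 CPM in LGMN-KO, against 10.6, 26.8 and 16.5 CPM in WT. Its log2 fold change was -1.34 ± 0.31 (SE; adjusted p = 0.0927, edgeR quasi-likelihood test). Slc6a8, which imports creatine, had 407, 472 and 475 CPM in LGMN-KO, against 389, 278 and 321 CPM in WT, a log2 fold change of 0.45 ± 0.13 (SE; adjusted p = 0.139). Neither gene overlapped between the genotypes, with Gatm lower and Slc6a8 higher in LGMN-KO.

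Genes of itaconate and of the citrate-to-succinate steps had a median of -0.02 over 24 tested, with 0 called in the edgeR quasi-likelihood fit (4 unadjusted). Rab32, a small GTPase that in macrophages helps deliver itaconate to vacuoles holding bacteria, had 61.4, 63.3 and 64.5 CPM in LGMN-KO, against 77.3, 123 and 103 CPM in WT. Its log2 fold change was -0.68 ± 0.15 (SE; adjusted p = 0.0866, edgeR quasi-likelihood test). Sdha, a subunit of the succinate dehydrogenase that itaconate inhibits, had 276 ± 8.40 CPM in LGMN-KO, against 332 ± 14.1 CPM in WT (± SD, 3 libraries each; adjusted p = 0.0976).

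Regulators known to act on Nos2, Arg1 or Irg1 had a median of -0.29 over 20 tested, the lowest of the 7 lists, with 16 negative. Over all tested genes 50.4% were negative. In the edgeR quasi-likelihood fit 0 of the 20 were called and 12 had an unadjusted p under 0.05, beside 0.789% and 17.5% of all tested genes. This list was chosen with earlier results of these data known, so nothing is read from these shares. Irf1, the interferon-gamma-induced factor on which Nos2 induction depends, had 12.04, 13.1 and 18.6 CPM in LGMN-KO, against 37.8, 158 and 80.6 CPM in WT. The WT libraries were in the same order as for Irg1, and the log2 fold change was -2.66 ± 0.49 (SE; adjusted p = 0.0575). WT replicate 2 was highest for 36.7% of all tested genes, and a link between Irf1 and Irg1 was not tested. Irf4 was at -2.06 on the log2 scale (adjusted p = 0.0837) and Stat3 at -0.56 (adjusted p = 0.0909). Stat6, through which interleukin-4 induces Arg1, had 317 ± 6.18 CPM in LGMN-KO, against 313 ± 11.6 CPM in WT, with a log2 fold change of 0.02. Named after its values were seen, Il4ra, the interleukin-4 receptor chain, was at -0.74 on the log2 scale (adjusted p = 0.12; edgeR quasi-likelihood test for each).

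**Figure D5:**
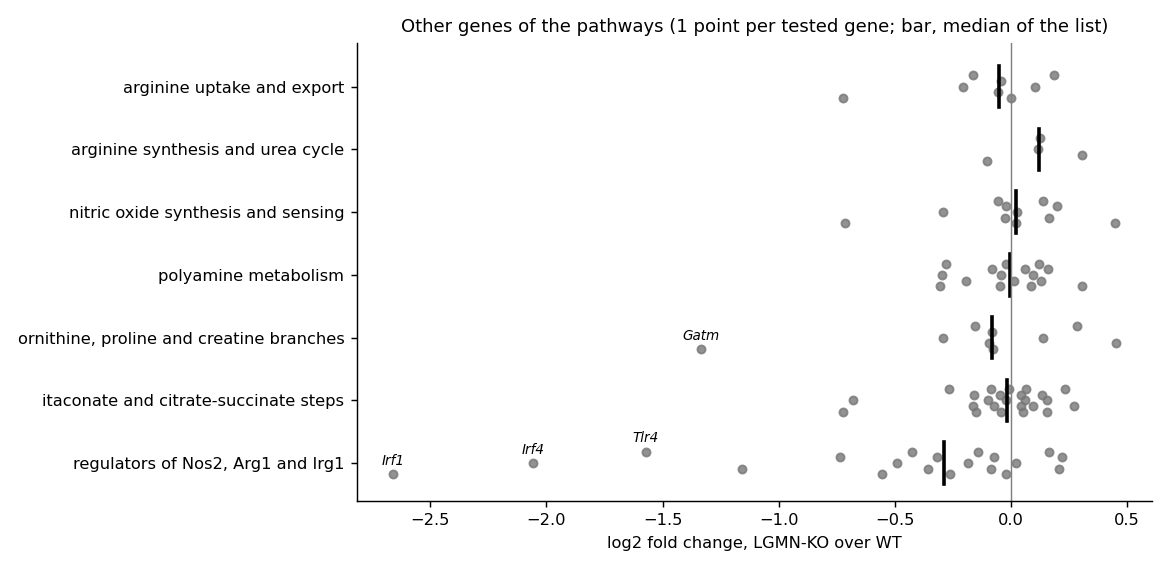
Fold change between LGMN-KO and WT on the log2 scale, positive where LGMN-KO is higher (horizontal axis) of each tested gene in the 7 lists (1 point per gene; vertical bar, median of the list); points are spread vertically for visibility. Most genes lie near 0, and the 4 points labelled with a name (Gatm, Irf1, Irf4 and Tlr4, labelled after their values were seen) lie below -1, with Irf1 at -2.66.

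Markers of other cell types that the sort could hold also differed between the genotypes. Of 11 T and NK cell markers, Trbc2, Cd8a and Nkg7 had 0 counts in every LGMN-KO library and counts in every WT library, Gzma had counts in WT replicate 2 alone, and Ncr1 had 0 counts in every library of both groups. The summed level of the list was 0.345 to 0.896 CPM in LGMN-KO, against 4.87 to 11.7 CPM in WT. Trac, a T cell receptor gene, was the 1 called of 3 tested markers of that list, and Zbtb46 of 4 tested dendritic cell markers, beside 0.789% of all tested genes. Both were lower in LGMN-KO and rest on few counts. Trac had 1, 2 and 1 counts in LGMN-KO, against 12, 29 and 25 in WT, and Zbtb46 had 6, 6 and 6, against 28, 30 and 30. The other dendritic cell markers overlapped between the genotypes, with Clec9a at -1.68, Ccr7 at -1.32 and Cd209a at 0.68 on the log2 scale. The 7 dendritic cell markers summed to 3.26 to 5.19 CPM in LGMN-KO, against 5.31 to 15.8 CPM in WT, with none at 0 in every library. Of the monocyte markers Ccr2 had 6.42, 3.88 and 4.34 CPM in LGMN-KO, against 11.4, 67.2 and 35.6 CPM in WT, with WT libraries in the same order as Irg1 and Arg1. Of the 6 tested monocyte markers 5 were negative and 4 had an unadjusted p under 0.05, beside 50.4% and 17.5% of all tested genes. Their median log2 fold change was -0.95, and 0 were called (edgeR quasi-likelihood test). Ly6c2 had 2.91, 2.04 and 13.2 CPM in LGMN-KO, against 20.2, 21.3 and 17.5 CPM in WT. The whole list of 7 summed to 444 to 550 CPM in LGMN-KO, against 445 to 662 CPM in WT, but 88.2% of that sum was Chil3, with 457 ± 59.5 CPM in LGMN-KO, against 435 ± 82.5 CPM in WT (± SD, 3 libraries each). Neutrophils can also express Arg1, Nos2 and Irg1. Among their markers S100a8 (10.8 to 12.98 CPM in LGMN-KO, 9.59 to 11.6 CPM in WT) and S100a9 (3.504 to 3.82 CPM in LGMN-KO, 3.47 to 4.09 CPM in WT) were low and overlapped. All 11 neutrophil markers summed to 272 to 329 CPM in LGMN-KO, against 311 to 455 CPM in WT. Csf3r made up 53.0% of that sum, with 190 ± 16.2 CPM in LGMN-KO, against 168 ± 16.5 CPM in WT (± SD, 3 libraries each), and overlapped. Within that list Mmp8 was lower in LGMN-KO (70.8 to 97.2 CPM, against 142 to 255 CPM in WT), whereas Cxcr2 (3.49 to 4.498 CPM in LGMN-KO, against 2.64 to 3.31 CPM in WT) was higher in every LGMN-KO library. Mpo had 4, 9 and 30 counts in LGMN-KO, against 0 in every WT library, and Ltf had 8, 15 and 13 counts in LGMN-KO, against 2, 5 and 1 in WT. Some genes of macrophages themselves differed as well. Of 10 markers 9 were negative and 9 had an unadjusted p under 0.05, beside 50.4% and 17.5% of all tested genes. Their median log2 fold change was -0.92. C1qa alone was called, lower in LGMN-KO (edgeR quasi-likelihood test), beside 0.789% of all tested genes. The marker lists were chosen with earlier results of these data known, so nothing is read from these shares. C1qa, a subunit of complement C1q, had 25.4, 34.7 and 36.1 CPM in LGMN-KO, against 81.4, 259 and 157 CPM in WT, in the WT order seen for Irg1. Cd68, which made up 58.5% of the summed level of the list, had 3597 ± 280 CPM in LGMN-KO, against 3171 ± 102 CPM in WT (± SD, 3 libraries each). The sums ran from 4685 to 5614 CPM in LGMN-KO, against 5239 to 7398 CPM in WT. The part of any of these cells or markers in the values of Irg1, Arg1, Nos2 and Ass1 was not tested.

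The remaining marker lists, as sums, were 138 to 170 CPM in LGMN-KO, against 118 to 188 CPM in WT, for 6 genes of resident cardiac macrophages, among which Lyve1 had 0 counts in every library. F13a1 made up 85.0% of that sum, while Timd4 reached at most 14 counts in a library and Cd163 at most 8. The sums were 45.4 to 116 CPM in LGMN-KO, against 132 to 180 CPM in WT, for 6 fibroblast genes (Lum was at 0 in all LGMN-KO libraries). For 6 endothelial genes they were 22.7 to 40.8 CPM in LGMN-KO, against 29.1 to 35.8 CPM in WT (Emcn at 0 in every library). Kdr made up 95.0% of the endothelial sum. Pecam1 had 0.148, 0.409 and 0.141 CPM in LGMN-KO, against 0.827, 1.76 and 1.46 CPM in WT. Tie1 went the other way, with 0.296, 0.409 and 0.283 CPM in LGMN-KO, against 0, 0.0463 and 0.125 CPM in WT. Cdh5 and Egfl7 overlapped. Mast cell and eosinophil genes summed to 4.93 to 8.08 CPM in LGMN-KO, against 11.9 to 14.3 CPM in WT, with Mcpt4 and Epx at 0. Siglecf made up 78.4% of that sum, and Kit, Cpa3 and Ccr3 overlapped. B cell genes summed to 2.15 to 2.88 CPM in LGMN-KO, against 2.09 to 6.01 CPM in WT, and cardiomyocyte genes to 3.21 to 3.88 CPM in LGMN-KO, against 3.25 to 4.53 CPM in WT.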

How the data were processed

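The study sequenced messenger RNA of cardiac macrophages, and samples were grouped by their titles. Per the file headers, the authors deposited for each gene and library a count and an FPKM value, the count divided by gene length and by library total, their group means of FPKM, a log2 fold change, and a p-value and q-value per gene. The deposited counts were whole numbers, and FPKM equals count over a length and the column total in 100% of 9082 genes that reach 100 counts in each library. Of the 8 genes, 5 have in the authors' deposited table a q-value below 0.05. The submitters' processing notes name TopHat2 2.0.9, HISAT2 and TopHat, with no role for any, and a human build, hg38. The table's loci are mouse: GENCODE M21 (GRCm38) holds 98.6% of the IDs, 80.8% of them at an identical position. No source used here names the program that counted reads, whether it used strand, or the authors' test.

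The 8 genes and all lists were chosen with earlier results of these data known. Counts were filtered with filterByExpr, scaled with TMM and tested with edgeR 4.0.16 (quasi-likelihood, glmQLFTest) under R 4.3.3 over 12546 genes, comparing LGMN-KO with WT without covariates, at an adjusted p of 0.05. Log2 CPM used a prior count of 2. The SE of a log2 fold change was derived from the test, as its absolute value over the square root of the quasi-likelihood F statistic. Alternatives were DESeq2 1.42.0, its size factors, no filter, limma 3.58.1 voom with sample weights, a threshold of 0.1, a replicate block and leaving out each library. The fit was tested on simulated data. Between libraries of 1 group the chi-square was 14.0 to 42.7 times its degrees of freedom, so none looked like a repeat deposit of another. This does not show that each came from its own animal. Named genes are the 8, the 3 genes of smallest p and 2 of highest level in each pathway list, and the 5 nearest in pattern to each called gene. Gch1, Il4ra, Nos1, Nos3, Cps1, Otc and Tlr4 were named after their values were seen, Vti1b, Gm26584 and Ass-ps1 for overlap or likeness with 1 of the 8, and markers from their lists. Of 3 genes of the sort 2 were analysed here. The result of 1 gene of the regulator list is not reported here by name.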

Additional observations from a re-analysis of the deposited data

How the results depend on the processing

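The number of genes called depended on the settings: 99 by the edgeR fit, 503 at a threshold of 0.1, 804 with DESeq2, 318 without a filter, 340 with limma-voom and sample weights, and 6 to 639 when 1 library was left out. Of the 8 arginine and itaconate genes 2 were called, 4 at the threshold of 0.1, 5 with DESeq2, 4 without a filter, 4 with limma-voom and 0 to 4 without 1 library. No gene of the 8 was called without LGMN-KO replicate 1, LGMN-KO replicate 2 or WT replicate 3 (edgeR quasi-likelihood test; 7, 6 and 6 had an unadjusted p under 0.05), and Slc7a2 alone without LGMN-KO replicate 4. Of the other pathway genes 0 were called by edgeR (21 had an unadjusted p under 0.05), 8 at 0.1, 11 with DESeq2, 5 without a filter, 6 with limma-voom and 0 to 10 without 1 library, the 10 without WT replicate 1. The Slc7a2 share of the transporter pair was 54.3% in LGMN-KO and 35.9% in WT from counts not divided by length, and 60.0% in LGMN-KO and 41.3% in WT with GENCODE lengths. With the replicate number as a block 39 genes were called, and Irg1 and Slc7a2 kept their calls. Numbers 3 and 4 each occur in 1 genotype only, so the block fit compares the genotypes within numbers 1 and 2 alone. Deviations of same-numbered libraries correlated at 0.12 for number 1 and 0.08 for number 2. Those of unlike-numbered libraries ran from -0.17 (LGMN-KO replicate 1 with WT replicate 2) to 0.11 (LGMN-KO replicate 4 with WT replicate 2). Nothing in the labels says that a number marks a shared animal or day. Among the 39 genes recomputed one by one (the 8 and 31 other pathway genes), signs changed for 3 with log2 fold changes near 0: Odc1 (-0.073 with the block, and -0.032 to 0.073 without 1 library), Pts (-0.037 to 0.092 without 1 library) and Eif5a (-0.036 with the block, and -0.027 to 0.083 without 1 library). The cause of these changes was not tested. Of the 8 genes Nos2 rests on the fewest counts, 0 to 39 in a library.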
